A study of Mus musculus with 18 samples.

Results

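The guanylate-binding proteins (Gbp genes) are a family of large GTPases, and 8 mouse members were listed by symbol, namely Gbp2, Gbp3, Gbp4, Gbp5, Gbp6, Gbp7, Gbp8 and Gbp9. The identifiers of the deposited count table were joined to gene symbols, and 6 of the 8 members had a row among 43629 genes. Gbp5 and Gbp6 had no matched row and were not analysed here. Of the 6 members, Gbp2, Gbp3, Gbp4 and Gbp7 passed the filter on low counts, and Gbp8 and Gbp9 did not. Expression was measured by 3′ mRNA sequencing (QuantSeq), which reads the end of each transcript, in 18 libraries of AT3 cells, a mouse mammary carcinoma line that the study used as a model of triple-negative breast cancer. The 6 conditions had 3 libraries each and lasted 3 h in all. Cells were pre-treated for 1 h with DMSO vehicle, with A-241 (250 nM) or with A-485 (1000 nM), which inhibit the acetyltransferase activity of P300/CBP, and IFNγ (1 ng/mL) or its vehicle was then added for a further 2 h. The conditions are called DMSO, A-241, A-485, IFNγ, A-241+IFNγ and A-485+IFNγ. For the combinations the inhibitor concentrations are those given in the study's methods, since the labels give them for the inhibitors alone. The labels call the triplicates biological and the methods call them technical, so the p-values measure only the spread between libraries of 1 cell line, which may be technical.

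GBPs are among the genes most readily transcribed after interferon, when transcription factors such as IRF1 act on their promoters. The proteins assemble on vacuoles that hold pathogens and on the surface of bacteria in the cytosol, recruit further host factors, and promote caspase-11 and inflammasome responses. Mouse Gbp genes lie in a cluster on chromosome 3, which holds Gbp2, Gbp3, Gbp5 and Gbp7, and in a cluster on chromosome 5, which holds Gbp4, Gbp6, Gbp8 and Gbp9. Gbp2, Gbp5 and Gbp2b carry a C-terminal motif for the attachment of a lipid, by which GBPs reach membranes.

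The chromosome 3 members were annotated on the plus strand of GRCm38, Gbp7 at chr3:142530342-142550149, Gbp3 at chr3:142560026-142573209 and Gbp2 at chr3:142620602-142638008. The promoters of these members are shown because their counts were high enough to be followed in every condition, and because the core sequences bound by factors of the interferon response can be read in them. The windows are from RefSeq on GRCm38.p6 and run from 250 bases before to 50 bases after an annotated start, on the plus strand, at chr3:142620413-142620712 for Gbp2, chr3:142559794-142560093 for Gbp3 and chr3:142530086-142530385 for Gbp7. Capitals mark matches to the core of the interferon-stimulated response element (ISRE, GAAANNGAAA on either strand) and, in Gbp7, also to the core of the gamma-activated site (GAS, TTCNNNGAA, which is its own reverse complement). In Gbp3 a pair of overlapping ISRE matches forms 1 run of capitals.
Gbp2 promoter: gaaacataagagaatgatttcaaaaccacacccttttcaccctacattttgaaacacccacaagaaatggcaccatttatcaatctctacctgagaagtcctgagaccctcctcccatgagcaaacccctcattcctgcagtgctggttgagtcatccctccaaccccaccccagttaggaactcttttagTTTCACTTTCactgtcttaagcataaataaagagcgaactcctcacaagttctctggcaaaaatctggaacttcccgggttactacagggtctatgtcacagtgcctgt
Gbp3 promoter: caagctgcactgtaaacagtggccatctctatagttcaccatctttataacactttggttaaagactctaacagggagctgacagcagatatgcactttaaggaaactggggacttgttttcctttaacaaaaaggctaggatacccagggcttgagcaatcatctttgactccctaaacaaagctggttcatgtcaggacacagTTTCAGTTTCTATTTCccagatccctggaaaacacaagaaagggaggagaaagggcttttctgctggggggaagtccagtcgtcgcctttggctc
Gbp7 promoter: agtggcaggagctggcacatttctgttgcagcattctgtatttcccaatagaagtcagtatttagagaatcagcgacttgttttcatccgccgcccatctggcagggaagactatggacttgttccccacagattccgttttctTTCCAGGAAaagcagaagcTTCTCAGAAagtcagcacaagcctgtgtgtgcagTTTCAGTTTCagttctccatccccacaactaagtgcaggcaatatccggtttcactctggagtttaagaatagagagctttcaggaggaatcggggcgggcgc
The ISRE core began 59 bases before the start in Gbp2, 45 and 39 bases before it in Gbp3 and 53 bases before it in Gbp7. Gbp7 also held the GAS core, 106 and 87 bases before the start. Gbp3 had a second RefSeq window, at chr3:142560106-142560405, that held neither core. The 4 members with a window (Gbp5 is the other) all held the ISRE core in at least 1 window, and 2 of the 4 held the GAS core. Among all 27025 genes with a window, 3.99% held the ISRE core and 9.55% the GAS core. A match describes these letters and does not show that a factor was bound.

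Between 3417167 and 7856830 counts were deposited per library, with a median of 4880947. In AT3 cells 8 of the 9 epithelial and mammary carcinoma markers examined had more than 3 counts in all 18 libraries, and Krt19 had at most 1 count in any library. The 9 include Vim, a mesenchymal gene, and the summed level of the epithelial markers given below includes it. Among 8 haematopoietic markers, Adgre1 was at 0 counts in every library, Ptprc ranged from 0 to 73 counts, and the summed level of the list lay between 3.69 and 40.7 CPM (the usual depth-scaled count, here with TMM factors for library composition). Among 7 endothelial and fibroblast markers, Cdh5 was at 0 in every library, and the summed level of the list was at most 6.46 CPM. The transcript Gm42418 took 20.1% of the counts of DMSO replicate 3 and 23% of those of IFNγ replicate 2, against 7.11% to 16.2% elsewhere. IFNγ replicate 2 also had the highest summed haematopoietic level of the libraries with IFNγ alone, at 36.3 CPM. That level was 40.7 CPM in A-485 replicate 1, 36.9 CPM in A-485 replicate 3 and 30.9 CPM in A-241+IFNγ replicate 3. In these libraries Gm42418 took 11%, 9.56% and 12.1% of the counts. The part of these differences in the results was not tested. Calls and percentages that changed without DMSO replicate 3 or IFNγ replicate 2 are given beside the results.

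To ask how the family responded to IFNγ, levels with IFNγ alone were compared with DMSO. Gbp2, Gbp3 and Gbp7, which were detected in every library, rose within the 2 h of stimulation, and the rise was 67.4-fold for Gbp2, 13.3-fold for Gbp7 and 8.14-fold for Gbp3. Since 3′ counts are not corrected for how well each transcript is captured, levels are compared between conditions and not between genes.

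Gbp2, which restricts intracellular pathogens such as Toxoplasma, was at 4.42, 4.25 and 6.9 CPM in the 3 DMSO libraries and at 292, 421 and 312 CPM in the 3 IFNγ libraries. The lowest IFNγ library lay far above the highest DMSO library. The log2 fold change was 6.08 ± 0.24 (SE), with an adjusted p of 1.5e-10 in edgeR's quasi-likelihood test over 11964 genes. Gbp7, known for its part in the assembly of the phagocyte NADPH oxidase and in autophagy, was at 5.89, 3.31 and 6.9 CPM with DMSO and at 60, 77.6 and 70.3 CPM with IFNγ. Its groups did not overlap, and the log2 fold change was 3.73 ± 0.27 (SE, edgeR adjusted p = 2e-07). Gbp3, whose gene lies between those of Gbp7 and Gbp2, was at 6.1, 7.09 and 7.93 CPM with DMSO and at 50.4, 77.6 and 44 CPM with IFNγ. Every IFNγ library was again above every DMSO library, and the log2 fold change was 3.03 ± 0.23 (SE, edgeR adjusted p = 3.47e-07).

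The chromosome 5 members had at most 2 counts without IFNγ in every library but A-485 replicate 3, which had 9 counts of Gbp4 and 4 of Gbp8. Gbp4 (chr5:105115767-105139586, minus strand) had 1, 0 and 1 counts in the DMSO libraries and 125, 30 and 62 counts in the IFNγ libraries, or 11.7 ± 3.29 CPM (SD, n = 3) with IFNγ. Gbp4 passed the filter on low counts only through its IFNγ libraries, so that it had to differ. The ratio of its summed counts, corrected for depth, was 88.1, with a 95% interval of 24.1 to 732 that covers counting error only, and edgeR called it higher (adjusted p = 0.000402). Gbp9 (chr5:105077630-105139539, minus strand) had 1, 0 and 0 counts with DMSO and 25, 7 and 22 with IFNγ, a ratio of 43.8 with a counting interval of 7.54 to 1760. Gbp8 (chr5:105014150-105139540, minus strand) had 0 counts in all 3 DMSO libraries and 13, 13 and 8 with IFNγ, at least 2.21-fold higher when DMSO is set to 3 counts in its shallowest library. In a fit without the filter Gbp9 was called higher (edgeR adjusted p = 0.000409) and Gbp8 was not (edgeR adjusted p = 0.0319). Gbp4, Gbp8 and Gbp9 share 60 or 61 exon bases at their 5′ ends and none in the last 500 bases, where 3′ reads fall, and reads there are counted for each gene. Parts of the Gbp4 transcripts recur elsewhere in the family, from 0.939% to 29.6% of the 75-base words in their last 500 bases, so the count of Gbp4 is less certain than that of Gbp2 or Gbp7, for which no such word recurred.

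Gbp2, Gbp3 and Gbp7, the 3 members detected in every library, were all called higher with IFNγ, against 1.2% of all genes tested (144 of 11964). Since the filter fixed the direction of Gbp4, shares of members called are given over these 3. The median log2 fold change of all genes lay between -0.03 and 0.01 in the comparisons described here. TMM scaling sets this median near 0, so a change shared by most genes would not be seen in it or in CPM. When only the 6 libraries of these conditions were fitted, Gbp2 and Gbp7 were still called, and Gbp3 and Gbp4 had edgeR adjusted p of 0.0144 and 0.0163. IFNγ replicate 2 was the highest of the IFNγ libraries for Gbp2, Gbp3 and Gbp7 and the lowest for Gbp4 and Gbp9, and the calls of Gbp2, Gbp3 and Gbp7 were also made without it. In bulk RNA, fewer cells that express a gene and less of its RNA per cell cannot be told apart.

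**Figure D1:**
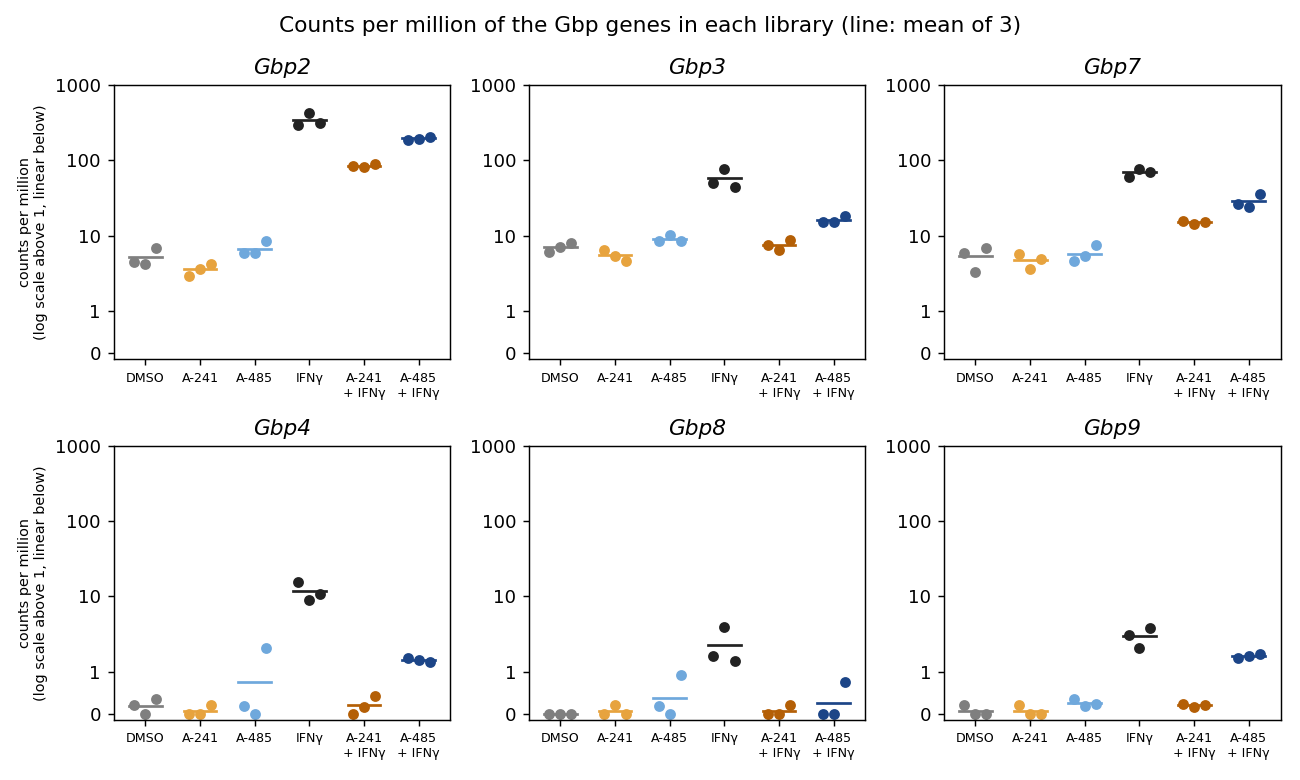
Level in CPM (vertical axis, logarithmic above 1 and linear below) of the 6 Gbp genes in the 3 libraries of each condition, with points for libraries and lines for means. With IFNγ alone Gbp2 reached 292 to 421 CPM and Gbp3 44 to 77.6 CPM, and without IFNγ the highest value of Gbp4, Gbp8 or Gbp9 was the 2.09 CPM of Gbp4 in A-485 replicate 3.

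Among other Gbp genes in the table, Gbp2b (chr3:142594847-142619179, plus strand), which is also known as Gbp1, had 0 counts in all DMSO libraries and 74, 15 and 45 counts with IFNγ. Like Gbp4, it passed the filter on low counts only through its IFNγ libraries and so had to differ. It was at least 6.89-fold higher with IFNγ, taking DMSO at 3 counts in its shallowest library (edgeR adjusted p = 5.89e-05). Its RefSeq window held the ISRE core 137 bases before the start and no GAS core. Gbp11, annotated as a polymorphic pseudogene at chr5:105323042-105346472 on the minus strand, had at most 3 counts in any library.

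To ask whether the inhibitors alone moved the family, A-241 and A-485 were each compared with DMSO, which both comparisons share as control. No member was called in either comparison. Gbp2 was at 2.94, 3.6 and 4.2 CPM with A-241, each below the lowest DMSO library, and the log2 difference of -0.49 (95% interval -1.01 to 0.02) had an adjusted p of 0.308 in edgeR. With A-485 Gbp2 was at 5.81, 5.9 and 8.35 CPM, which overlapped DMSO, with a log2 difference of 0.4 (95% interval -0.09 to 0.88, edgeR adjusted p = 0.514).

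Gbp3 was at 6.5, 5.4 and 4.63 CPM with A-241 and at 8.45, 10.3 and 8.58 CPM with A-485. The A-485 libraries all lay above DMSO, by 0.38 on the log2 scale (95% interval -0.11 to 0.88, edgeR adjusted p = 0.545). Gbp7 overlapped DMSO with both inhibitors, with log2 differences of -0.14 for A-241 and 0.14 for A-485, and both signs turned when single libraries were left out. Gbp4, at 9 counts in A-485 replicate 3, had at most 1 count in the other 5 inhibitor libraries. The summed level of the epithelial markers was 1160 to 1190 CPM with A-241 and 1320 to 1420 CPM with A-485, against 1770 to 2220 CPM with DMSO, and the part of this in the results was not tested. With A-241, Gbp2, Gbp3 and Gbp7 were not called lower in edgeR, against 3.53% of all genes, and did not pass an unadjusted p of 0.05. Gbp4 had at most 1 count in any DMSO library, too few for a fall to be called. With A-485, Gbp2, Gbp3 and Gbp7 were also not called lower in edgeR, against 0.619% of all genes, and did not pass an unadjusted p of 0.05. DESeq2 and limma-voom also called 0 members in both.

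To ask how much of the IFNγ level was reached when P300/CBP was inhibited first, A-241+IFNγ was compared with IFNγ. The mean level kept was 24.7% of the IFNγ level for Gbp2, 21.6% for Gbp7, 13.1% for Gbp3, 6.52% for Gbp9, 3% for Gbp8 and 1.64% for Gbp4. The value of Gbp8 rests on 1 count in 1 library, and that of Gbp4 was 0.696% without A-241+IFNγ replicate 3 and 2.46% without replicate 1. Without IFNγ replicate 2, the library rich in Gm42418, the level kept was 28% of the IFNγ level for Gbp2, 23% for Gbp7 and 16% for Gbp3.

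Gbp2 was at 84.2, 81.3 and 88.1 CPM with A-241+IFNγ, a narrow spread well below IFNγ and well above DMSO. Its log2 fold change against IFNγ was -2.01 ± 0.19 (SE, edgeR adjusted p = 4.49e-06). Gbp7 was at 15.4, 14.3 and 15.2 CPM, also between DMSO and IFNγ, with a log2 fold change of -2.21 ± 0.24 (SE, edgeR adjusted p = 1.84e-05). Gbp3 was at 7.6, 6.35 and 8.64 CPM, within the range of its DMSO libraries or close to it. Its log2 fold change was -2.92 ± 0.23 (SE, edgeR adjusted p = 4.95e-07).

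Gbp4 had 0, 1 and 2 counts with A-241+IFNγ, the level of the libraries without IFNγ. The summed counts with IFNγ alone were 65.5 times as high (95% counting interval 22.1 to 320), and edgeR called Gbp4 lower (adjusted p = 0.000197). The filter fixed the direction of this call too, since Gbp4 passed it only through its IFNγ libraries. Gbp9 had 1 count in each A-241+IFNγ library, and IFNγ alone was 16.3 times as high (counting interval 5.29 to 81.5). In the fit without the filter Gbp9 was called lower (edgeR adjusted p = 0.000716) and Gbp8, with 0, 0 and 1 counts, was not (edgeR adjusted p = 0.0281). Gbp2b had 2, 2 and 1 counts, 24.3 times below IFNγ (counting interval 10.1 to 75.9, edgeR adjusted p = 0.000154), in a direction that the filter likewise fixed. The summed level of the epithelial list was 1150 to 1310 CPM with A-241+IFNγ and 1610 to 1880 CPM with IFNγ, and the part of this in the results was not tested. Gbp2, Gbp3 and Gbp7 were all called lower, against 3.54% of all genes (424 of 11964), and were also called when each of the 6 libraries was left out in turn.

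The same comparison with A-485, at a concentration that differs from that of A-241, shares the IFNγ libraries. The mean level kept was 57.2% for Gbp2, 54.1% for Gbp9, 41.5% for Gbp7, 28.3% for Gbp3, 12.2% for Gbp4 and 11.1% for Gbp8. The value of Gbp8 rests on 4 counts in 1 library. Without IFNγ replicate 2 the level kept was 64.7% for Gbp2, 34.4% for Gbp3 and 10.9% for Gbp4. The summed level of the epithelial markers was 1240 to 1390 CPM with A-485+IFNγ and 1610 to 1880 CPM with IFNγ, and the part of this in the results was not tested.

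Gbp3 was at 15.1, 15.2 and 18.4 CPM with A-485+IFNγ and fell by 1.81 ± 0.21 on the log2 scale (SE, edgeR adjusted p = 0.000418). Gbp7 was at 26.4, 24.2 and 35.6 CPM, with a log2 fold change of -1.27 ± 0.23 (SE, edgeR adjusted p = 0.00899). The call of Gbp7 was lost when any 1 of the 6 libraries was left out, with edgeR adjusted p of 0.0117 to 0.0685. Gbp2 was at 188, 194 and 204 CPM, a log2 difference of -0.8 (95% interval -1.2 to -0.41) that did not pass the threshold of 0.01 (edgeR adjusted p = 0.036).

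Gbp4 had 8, 7 and 7 counts with A-485+IFNγ, against 30 to 125 with IFNγ. The log2 difference of -3.03 ± 0.6 (SE) had an edgeR adjusted p of 0.0158, and of 0.00812 without IFNγ replicate 2. Gbp9, with 8, 8 and 9 counts, differed from IFNγ by -0.88 on the log2 scale in the fit without the filter (95% interval -1.93 to 0.17, edgeR adjusted p = 0.639). Gbp8 had 0, 0 and 4 counts and was not called there (edgeR adjusted p = 0.249). The calls of Gbp3 and Gbp7, 2 of 3 members, stand against 0.535% of all genes (64 of 11964). Fitted with only these 6 libraries, Gbp3 and Gbp7 had edgeR adjusted p of 0.105 and 0.141. Without both libraries rich in Gm42418, Gbp2, Gbp3 and Gbp7 were called, as was Gbp4, whose direction the filter fixed.

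**Figure D2:**
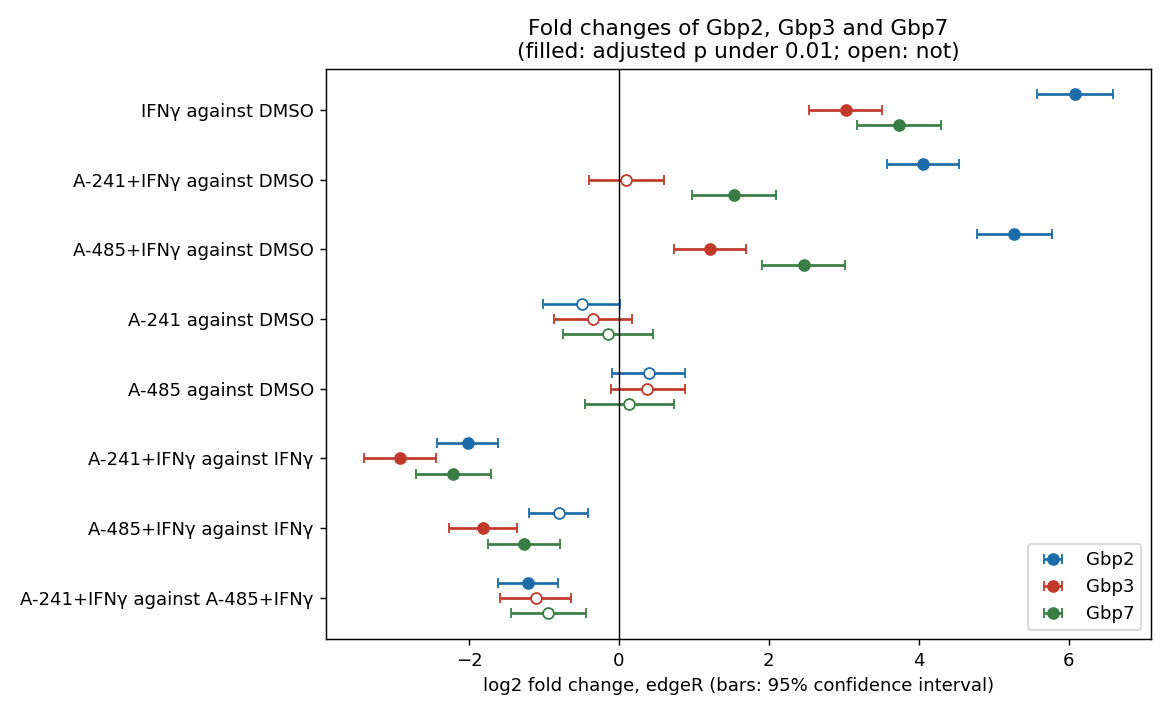
Log2 fold changes from edgeR (horizontal axis) of Gbp2, Gbp3 and Gbp7 in 8 comparisons (vertical axis), with 95% confidence intervals and filled points where the adjusted p was under 0.01. Against IFNγ, A-241+IFNγ gave -2.01 for Gbp2 and -2.92 for Gbp3, and A-485+IFNγ gave -0.8 and -1.81.

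Set directly against each other as applied, A-241+IFNγ at 250 nM and A-485+IFNγ at 1000 nM differed for Gbp2. The log2 difference of A-241+IFNγ from A-485+IFNγ was -1.21 for Gbp2 (95% interval -1.61 to -0.81, edgeR adjusted p = 0.00251), with all 3 libraries below those of A-485+IFNγ. The call was lost when any 1 of the 6 libraries was left out, at edgeR adjusted p of 0.0104 to 0.0251. Gbp3 and Gbp7 were also lower in every A-241+IFNγ library, with log2 differences of -1.11 (95% interval -1.59 to -0.64, edgeR adjusted p = 0.0197) and -0.94 (95% interval -1.44 to -0.44, edgeR adjusted p = 0.0953). Gbp4, with 0 to 2 counts against 7 or 8, was 7.42 times as high with A-485+IFNγ (counting interval 2.23 to 38.7) and was not called (edgeR adjusted p = 0.455). Gbp9, with 1 count in each library against 8, 8 and 9, was 8.43 times as high (counting interval 2.57 to 43.6, edgeR adjusted p = 0.0892 without the filter). The call of Gbp2, 1 of 3 members, stands against 0.51% of all genes. Without both libraries rich in Gm42418, 3 members were called. Since the concentrations differ, the comparison does not separate compound from dose.

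**Figure D3:**
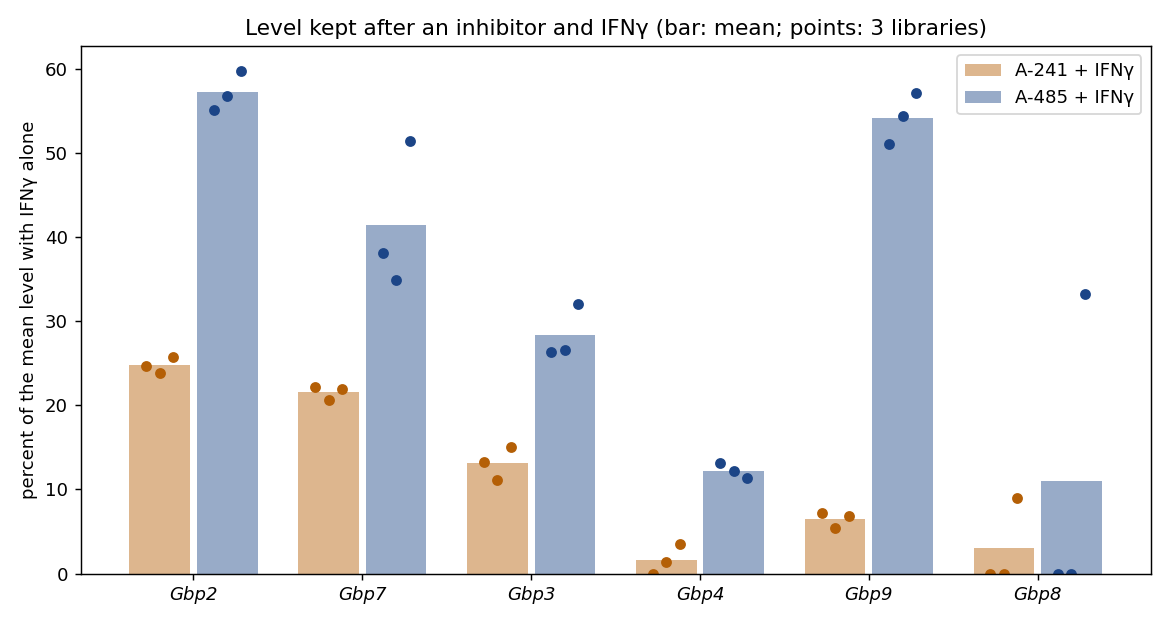
Level of each Gbp gene with an inhibitor and IFNγ as a percent of its mean level with IFNγ alone (vertical axis, from 0), with bars for means and points for the 3 libraries. A-241+IFNγ kept 24.7% of the Gbp2 level and 1.64% of the Gbp4 level, and A-485+IFNγ kept 57.2% and 12.2%.

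To ask what remained of the response to IFNγ, each combination was compared with the same inhibitor alone and with DMSO. With A-241, IFNγ still raised Gbp2 by 4.55 ± 0.23 on the log2 scale, or 23.5-fold (SE, edgeR adjusted p = 1.43e-08). Gbp7 was higher by 1.67 ± 0.26 (SE, edgeR adjusted p = 0.00533), a call that was lost when any 1 of the 6 libraries was left out (edgeR adjusted p of 0.019 to 0.0555). Gbp3, at 4.63 to 6.5 CPM with A-241 and 6.35 to 8.64 CPM with A-241+IFNγ, overlapped between them, with a log2 difference of 0.44 (95% interval -0.06 to 0.95, edgeR adjusted p = 1). These are 2 of 3 members called higher, against 0.192% of all genes. Against DMSO, A-241+IFNγ was higher by 4.06 for Gbp2 (edgeR adjusted p = 1.37e-08) and by 1.53 for Gbp7 (edgeR adjusted p = 0.00138), 2 of 3 members against 0.894% of all genes. Gbp3 was within 0.1 of DMSO on the log2 scale (95% interval -0.4 to 0.6, edgeR adjusted p = 0.831).

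With A-485, IFNγ raised Gbp2 by 4.87 on the log2 scale (edgeR adjusted p = 3.44e-09) and Gbp7 by 2.32 (edgeR adjusted p = 5.59e-05), 2 of 3 members called higher against 0.744% of all genes. Gbp3 was above A-485 in every A-485+IFNγ library, by 0.83 (95% interval 0.37 to 1.3), and did not pass the test (edgeR adjusted p = 0.107). Without both libraries rich in Gm42418, 3 members were called. Against DMSO, A-485+IFNγ was higher by 5.27 for Gbp2 (edgeR adjusted p = 1.75e-09), 2.47 for Gbp7 (edgeR adjusted p = 2.36e-05) and 1.21 for Gbp3 (edgeR adjusted p = 0.00394), 3 of 3 members against 0.894% of all genes. The call of Gbp3 was lost without A-485+IFNγ replicate 1, 2 or 3 or DMSO replicate 1 or 2, with edgeR adjusted p of at most 0.0278. Gbp9, with 8, 8 and 9 counts against 1, 0 and 0 with DMSO, was 22.7 times as high (counting interval 3.71 to 931) and was called in the fit without the filter (edgeR adjusted p = 0.00672). Gbp4 was 9.98 times as high as with DMSO (counting interval 2.45 to 87.6) and was not called (edgeR adjusted p = 0.147). Gbp2b had 10, 5 and 12 counts with A-485+IFNγ and was at least 1.68-fold above DMSO (edgeR adjusted p = 0.00357). Fitted without the other conditions, the calls of Gbp3 and Gbp7 against DMSO were also lost, for Gbp7 with A-241+IFNγ at an edgeR adjusted p of 0.0498 and with A-485+IFNγ at 0.0143.

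The interaction term tests whether the response to IFNγ differed with an inhibitor from that without it. With A-241 the response of Gbp3 differed by -2.58 on the log2 scale (95% interval -3.28 to -1.88, edgeR adjusted p = 0.00284). It was the 1 member called of 3, against 0.0334% of all genes (4 of 11964). The values for Gbp7 were -2.06 (95% interval -2.85 to -1.28, edgeR adjusted p = 0.0458) and for Gbp2 -1.52 (95% interval -2.18 to -0.87, edgeR adjusted p = 0.104). The call of Gbp3 was lost without A-241 replicate 1 or 2, A-241+IFNγ replicate 1 or 2 or DMSO replicate 1 or 2 (edgeR adjusted p up to 0.013), and with limma-voom (adjusted p = 0.0109). Without both libraries rich in Gm42418, 2 members were called with A-241 and 1 with A-485. With A-485 no member passed in edgeR, with -2.19 for Gbp3 (adjusted p = 0.0258), -1.41 for Gbp7 (adjusted p = 0.477) and -1.2 for Gbp2 (adjusted p = 0.45), and 0% of all genes were called. Gbp2, Gbp3 and Gbp7 had an unadjusted p under 0.05 in edgeR there, as did Gbp4, whose direction the filter fixed. So did 499 of 11964 genes, and DESeq2 called 1 member and 6 genes and limma-voom called 0 of either. Both interactions use the IFNγ and DMSO libraries.

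Whether the members moved in proportion was read from the ratio of the counts of 2 members in the same library, which does not depend on the scaling between libraries. The log2 ratio of Gbp2 to Gbp3 was 2.53, 2.44 and 2.83 with IFNγ alone, 3.45, 3.66 and 3.33 with A-241+IFNγ and 3.63, 3.66 and 3.46 with A-485+IFNγ. The ratio was higher with both inhibitors than with IFNγ alone in every library, by 0.88 for A-241+IFNγ and 0.99 for A-485+IFNγ. A two-sided exact permutation test gave p = 0.1 for each, the smallest that 3 against 3 libraries allow, and 0.12 after Benjamini-Hochberg adjustment over the 6 ratio comparisons made. The log2 ratio of Gbp7 to Gbp3 was 0.69 higher with A-241+IFNγ without overlap (exact permutation p = 0.1), and 0.5 higher with A-485+IFNγ with overlap (exact permutation p = 0.2). The log2 ratio of Gbp2 to Gbp7 was 0.2 higher with A-241+IFNγ and 0.49 higher with A-485+IFNγ (exact permutation p = 0.1 for each), and the nearest libraries of IFNγ and A-241+IFNγ both stood at 2.44. Without IFNγ the log2 ratio of Gbp2 to Gbp3 lay between -1.12 and -0.04 in all 9 libraries.

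**Figure D4:**
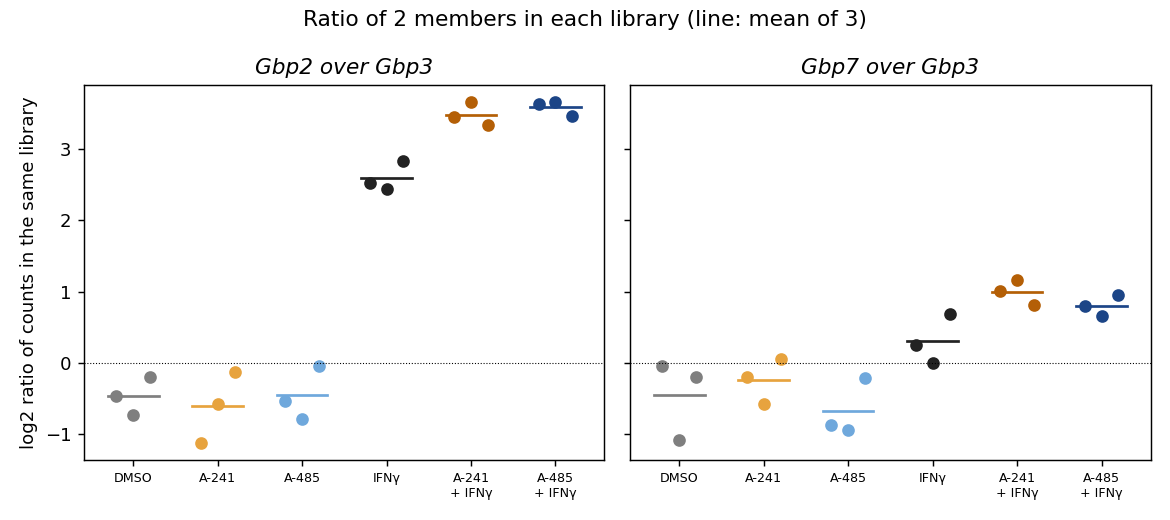
Log2 ratio of the counts of Gbp2 to Gbp3 (left) and Gbp7 to Gbp3 (right) in each library (vertical axis) by condition, with points for libraries and lines for means of 3. The ratio of Gbp2 to Gbp3 was 2.44 to 2.83 with IFNγ alone and 3.33 to 3.66 with either inhibitor and IFNγ.

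Ordered by mean level, Gbp2 and Gbp7 ran from IFNγ through A-485+IFNγ and A-241+IFNγ to the 3 conditions without IFNγ. For Gbp7 those 3 conditions overlapped one another, and for Gbp2 A-485 overlapped DMSO. For Gbp3 the order was IFNγ, A-485+IFNγ, A-485, A-241+IFNγ, DMSO and A-241, and each neighbouring pair from A-485 downwards overlapped. Gbp4 and Gbp9 stood apart with IFNγ, and Gbp9 also with A-485+IFNγ. For Gbp4 A-485+IFNγ overlapped A-485 through A-485 replicate 3, and lay above DMSO, A-241 and A-241+IFNγ in every library. Expressed as the rise over the condition without IFNγ, in CPM, A-241 left 24.1% of the Gbp2 rise, 16.1% of the Gbp7 rise and 4.02% of the Gbp3 rise. A-485 left 56.1%, 35.9% and 14.2%.

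Across the 18 libraries, which share their conditions, the log2 levels of Gbp2 and Gbp7 had a Pearson r of 0.96 and those of Gbp2 and Gbp3 an r of 0.78. With condition means removed the values were 0.56 and 0.31. The 5 genes outside the family whose log2 level followed the mean of the members most closely, of 8232 ranked, were Gm12250 (r = 0.972), Igtp (r = 0.965), Gm4951 (r = 0.963), Samhd1 (r = 0.961) and Cxcl9 (r = 0.96). Gm12250 and Igtp are both listed below among the immunity-related GTPases, Samhd1 hydrolyses deoxynucleotides, and Cxcl9 is a chemokine that attracts T cells. With IFNγ against DMSO their log2 fold changes were 11.14, 5.72, 8.07, 2.08 and 9.72 in that order, with A-241+IFNγ against IFNγ -6.25, -2.98, -5.28, -1.62 and -6.05, and with A-485+IFNγ against IFNγ -2.43, -1.11, -2.13, -0.79 and -1.31. With condition means removed, r was 0.6, 0.26, 0.33, -0.22 and 0.45 in that order. These correlations describe the 18 libraries and carry no test. The mean of the members included Gbp4, which had few counts without IFNγ. The 5 genes were picked because they followed the members in these libraries, so their fold changes follow in part from that choice.

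Among genes of IFNγ signalling upstream of the family, the transcription factors Irf1 and Irf8 and the signal transducer Stat2 were called higher with IFNγ (1.2% of all genes were). The log2 fold change was 5.05 for Irf1 (edgeR adjusted p = 3.52e-08), 7.42 ± 0.77 (SE) for Irf8 (edgeR adjusted p = 1.33e-05) and 2.5 for Stat2 (edgeR adjusted p = 2.45e-06). The SE of Irf8 was 1.5 for A-241 against DMSO. Whether Irf8 passed the filter on low counts only through libraries with IFNγ was not checked. With A-241+IFNγ against IFNγ Irf8 was called lower, at -2.43 (edgeR adjusted p = 0.00318), as was Stat2, at -1.05 (edgeR adjusted p = 0.00413), against 3.54% of all genes. Irf1 was still higher by 4.1 with A-241+IFNγ against A-241 (edgeR adjusted p = 1.16e-06) and by 4.64 with A-485+IFNγ against A-485 (edgeR adjusted p = 1.09e-07). Its difference from IFNγ was -0.87 with A-241+IFNγ (edgeR adjusted p = 0.0547) and -0.35 with A-485+IFNγ (edgeR adjusted p = 0.549).

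The immunity-related GTPases are smaller interferon-induced GTPases that act with GBPs on pathogen vacuoles. Of 15 listed, 10 were tested, and all 10 were called higher with IFNγ (1.2% of all genes were), with a median log2 fold change of 6.93. Like Gbp4, a gene with few counts without IFNγ can pass the filter only through libraries with IFNγ, which fixes its direction. How many of the 10 did so was not counted. Tgtp1 and Tgtp2, at 6.89 and 6.82, had nearly the same values, and whether they share reads was not tested. The leading genes were Igtp at 5.72 (edgeR adjusted p = 1.5e-10), Iigp1 at 6.97 (edgeR adjusted p = 1.91e-09), Gm4841 at 9.04 (edgeR adjusted p = 1.28e-08) and Irgm1 at 4.51 (edgeR adjusted p = 3.52e-08). With A-241+IFNγ against IFNγ all 10 were called lower (3.54% of all genes), with a median of -3.2, Igtp at -2.98 (edgeR adjusted p = 1.68e-07) and Tgtp1 at -4.77 (edgeR adjusted p = 2.91e-06) among them. With A-485+IFNγ 2 of 10 were called lower, Igtp at -1.11 (edgeR adjusted p = 0.00468) and Gm12250 at -2.43 (edgeR adjusted p = 0.00515), against 0.535% of all genes, with a median of -1.31. In the direct comparison 6 of 10 were called lower with A-241+IFNγ than with A-485+IFNγ (0.51% of all genes), with a median of -2.12.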

How the data were processed

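The authors trimmed reads with cutadapt 1.7, aligned them to mm10 with HISAT2 2.1.0 and counted them over exons with featureCounts, per the labels and the study's methods. The deposited table holds raw, unnormalized counts, in which a read over several genes was counted for each. No strand setting is named, and the annotation release is not given in the sources used here. Identifiers were joined to symbols through GENCODE vM21 of GRCm38 (42462 of 43629 matched). In R 4.3.3 with edgeR 4.0.16, all 18 libraries entered 1 quasi-likelihood fit with the 6 conditions as terms, after filterByExpr (11964 genes kept) and TMM scaling. Benjamini-Hochberg adjustment covered every gene tested, and calls required an adjusted p under 0.01. The steps were tested on simulated data. Alternatives were DESeq2 1.42.0, limma-voom (limma 3.58.1), surrogate variables (sva 3.50.0), other filters, scalings, thresholds and prior counts, fits of only the conditions compared, 1 row for the overlapping genes, the replicate number as a block, and libraries left out. The text names every member, other Gbp genes in the table, up to 4 called genes per list with the smallest adjusted p, and the 5 genes most correlated with the members. The members and lists were chosen with earlier results of these data known. Depth was 3417167 to 7856830 counts, and intervals on counts cover counting error only. Figures were drawn with matplotlib. Promoter motifs were searched in Python on both strands. The list of upstream signalling genes is given in part, since 1 item is not reported here.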

Additional observations from a re-analysis of the deposited data

Results flagged for a closer look

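The response of Gbp3 to IFNγ differed between cells with and without A-241, by the interaction term of the edgeR model, which is why it is listed here. The difference was -2.58 on the log2 scale (95% interval -3.28 to -1.88, edgeR adjusted p = 0.00284). In CPM the mean of Gbp3 went from 7.04 with DMSO to 57.3 with IFNγ, and from 5.51 with A-241 to 7.53 with A-241+IFNγ (n = 3 libraries each). The call was lost in 6 of 12 fits with a library left out (edgeR adjusted p up to 0.013) and with limma-voom (adjusted p = 0.0109). It was also lost with the replicate block (edgeR adjusted p = 0.0108) and with only the conditions compared (edgeR adjusted p = 0.0446).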

How the results depend on the processing

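Gbp2, Gbp3 and Gbp7 were called lower with A-241+IFNγ against IFNγ under each alternative run. Gbp4 was also called wherever it was tested, in a direction that the filter fixed, and a filter of 10 counts in every library left it out. The counts of members called below are over 4 members and include Gbp4. In A-485+IFNγ against IFNγ, 2 members were called, 1 with total counts, upper-quartile factors or the replicate block, 0 with only the conditions compared, 3 with limma-voom or no filter, 4 with DESeq2, 2 surrogate variables, an adjusted p under 0.05 or without DMSO replicate 3 and IFNγ replicate 2, and 1 to 2 with a library left out. In A-241+IFNγ against A-485+IFNγ the 1 became 2 with total counts, DESeq2 or an adjusted p under 0.05, 3 with surrogate variables, only the conditions compared or without those 2 libraries, and 0 with any library left out. For the interaction with A-241 the 1 became 0 with the replicate block, limma-voom or only the conditions compared, 2 at 0.05 or without those 2 libraries, 3 with DESeq2 or surrogate variables, and 0 to 1 with a library left out. For that with A-485 the 0 became 1 with total counts, DESeq2, 0.05 or without those 2 libraries, and 3 with surrogate variables. With only the conditions compared, 2 of the 4 calls were kept in IFNγ against DMSO, 1 of 2 in A-241+IFNγ against DMSO and 1 of 3 in A-485+IFNγ against DMSO. In A-241+IFNγ against A-241 1 of 2 was kept with any library left out. The libraries spread unequally around the means of their conditions. The root mean square deviation in log2 CPM was 0.73 for DMSO replicate 3 and 0.76 for IFNγ replicate 2, against 0.23 to 0.51 in the others. In the main fit all conditions shared 1 estimate of the spread per gene. The part of this in the changed calls was not tested, nor was any other cause.

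Signs turned only for differences that were not called. With a library left out, Gbp7 lay between -0.43 and 0.07 for A-241 against DMSO and between -0.14 and 0.35 for A-485 against DMSO, Gbp4 between -0.58 and 2.62 for A-485 against DMSO, and in A-241+IFNγ against DMSO Gbp3 lay between -0.03 and 0.22 and Gbp4 between -0.56 and 0.92. For A-241 against DMSO Gbp7 was 0.03 without both libraries rich in Gm42418. Libraries with the same replicate number did not deviate together (median r = -0.018 over 45 pairs, 15 above 0.1), so the replicate block pairs libraries by number only. At these depths the few counts of Gbp4, Gbp8 and Gbp9 limit what could be called. Scaling to total counts moved the median log2 fold change of all genes by up to 0.14, in A-241+IFNγ against IFNγ.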

Other observations

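The annotated gene Gm43302 (chr5:105214907-105293695, minus strand) was examined after its values were seen, because it spans the Gbp6 and Gbp10 loci. It shares 1726 exon bases with Gbp6 and 1792 with Gbp10, and every 75-base word in its last 500 transcript bases also occurs in a transcript of Gbp6 or Gbp4, so its 3′ reads cannot be told apart from theirs. It had 0, 5 and 2 counts with DMSO and 835, 189 and 503 counts with IFNγ, with no overlap. It passed the filter on low counts only through libraries with IFNγ, so that it had to differ, and was higher by 7.31 on the log2 scale (edgeR adjusted p = 3.47e-07). With A-241+IFNγ it had 8, 14 and 10 counts, or 2.47% of the IFNγ level (edgeR adjusted p = 1.62e-06), and with A-485+IFNγ 111, 95 and 101 counts, or 24.2% (edgeR adjusted p = 0.00816). The direct comparison of both combinations gave -3.27 (edgeR adjusted p = 0.00114).

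Of 7 other large GTPases of the interferon response that were tested, 2 were called higher with IFNγ, against 1.2% of all genes. They were Gvin1 by 2.79 (edgeR adjusted p = 0.0095) and Gm4070 by 2.8 (edgeR adjusted p = 0.00959). The same 2 were called lower with A-241+IFNγ against IFNγ (3.54% of all genes), at -2.93 (edgeR adjusted p = 0.00262) and -2.85 (edgeR adjusted p = 0.00308). Their values were nearly the same in both comparisons, and a read over several genes was counted for each. They may therefore not be 2 separate results, and whether they share reads was not tested. Of 11 genes of the autophagy conjugation system and its partners, 1 was called higher with IFNγ, against 1.2% of all genes. It was the partner Rnf213, a large E3 ligase, by 1.7 (edgeR adjusted p = 0.000708), and the other 10 were not called. Of 6 genes of prenylation, 0 were called with IFNγ, and of 10 inflammasome and pyroptosis genes 2 were tested and 0 were called, in edgeR. With 1.2% of all genes called higher, lists this small would mostly hold 0 called genes.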
